A study of Mus musculus with 6 samples.

Results

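The genes that hydroxylate, fold and trim procollagen were examined in RPE/choroid, the retinal pigment epithelium together with the vascular layer beneath it. The set was given by name and holds 10 of the 33924 genes in the deposited table: the lysyl hydroxylases Plod1, Plod2 and Plod3, the prolyl 4-hydroxylase subunits P4ha1, P4ha2, P4ha3 and P4hb, the chaperone Serpinh1, the protease Bmp1 and its enhancer Pcolce. All 10 had a mean above 0. Total RNA depleted of ribosomal RNA was sequenced from untreated wild-type C57BL/6J mice, 3 Young and 3 Aged. The titles place the Young mice at 1 to 2 months and the Aged mice at 20 to 24 months, whereas the time label of the Aged mice begins at 22 months. Each mouse is labelled male, whereas the study's methods describe males and females and a somewhat older young group. Each sample combined the tissue of a pair of eyes.

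The study asked how RPE/choroid changes with age, and that question is not answered here. For each gene the table gives 1 mean over the 6 libraries of both ages, in normalized counts, and otherwise only the columns of a comparison made by the authors, which were not used. No value per mouse or per age group was at hand, so the levels below carry no SD and no test, and the depth of each library is not known from the table; the study gives an average over libraries only. An order between genes is therefore the order of the pooled means, and for no pair of neighbours in it could the gap be set against the spread between mice. A level in such bulk tissue combines the number of cells that express a gene with the amount of RNA in each, and these cannot be told apart.

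Collagen chains are modified in the endoplasmic reticulum before they leave the cell. Prolyl 4-hydroxylases, in which a catalytic chain from a P4ha gene pairs with the protein disulfide isomerase encoded by P4hb, hydroxylate proline and so keep the triple helix stable at body temperature. Lysyl hydroxylases from the Plod genes prepare lysine for cross-links and for sugar attachment. HSP47, the product of Serpinh1, binds the folded helix and travels with it towards the Golgi. Outside the cell, the metalloprotease encoded by Bmp1 removes the C-terminal propeptide of fibrillar procollagens, and the Pcolce product speeds that step. In the eye, collagens form Bruch's membrane under the RPE as well as the stroma of choroid and sclera.

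Whether reads of related members could be told apart was examined first, since the levels of paralogs depend on it. The transcripts of GENCODE M21, an annotation of GRCm38, the build of the study, were used for this. The lysyl hydroxylases were alike along their whole length. Translated from their annotated coding sequences, Plod1 and Plod3 shared 60.5% of 722 aligned residues, Plod1 and Plod2 shared 59.2% of 726, and Plod2 and Plod3 shared 58.2% of 737. Among the prolyl 4-hydroxylase chains, P4ha1 and P4ha2 were identical at 62.5% of 531 aligned residues. P4ha3 stood further off, with 39.9% identity to P4ha1 and 39.7% to P4ha2.

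Exact runs of bases shared by these paralogs were short. The longest exact run common to each pair of coding sequences is shown to mark how short it was in comparison with a sequencing read.

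Plod1 and Plod3: atggaacactatggccagtggtct

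Plod2 and Plod3: ttgattgaacaaaacaggaa

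P4ha1 and P4ha2: ctgtggatggagcagg

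Plod1 and Plod2: aatgggcccaccaag

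P4ha1 and P4ha3: agcaaaagtgc

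P4ha2 and P4ha3: ggaggccactg

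These runs measured 24, 20, 16, 15, 11 and 11 bases. The run of Plod1 and Plod3 begins at coding base 1720 of Plod1, counted from 1 at the A of the start codon. When the transcripts were divided into all overlapping words of 31 bases, 0 words of a Plod gene occurred in another Plod gene, and 0 words of a P4ha gene in another P4ha gene. Of the words of Plod2, P4hb and Serpinh1, 0 occurred in another gene on the same strand. For the other members, between 97.4% (Pcolce) and 99.9% (P4ha1) of the words occurred in no other gene on that strand. P4ha3 and Bmp1 each had 2 words that occurred in another member on the same strand. On the opposite strand, 481 words of Plod3, 316 of Plod2, 19 of Plod1, 8 of Bmp1, 5 of P4ha1 and 1 of Pcolce occurred in another gene.

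Sequence features differed with the role of the product. Of the 10 proteins, 2 ended in the C-terminal signal that returns proteins to the endoplasmic reticulum, those of P4hb and Serpinh1. The last 30 coding bases are printed to show it, with the codons of the signal in capitals before the stop codon.

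P4hb: gatcagaaagctgtgAAGGATGAACTGtag

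Serpinh1: aagggagacaagatgCGAGATGAGTTGtag

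The Plod and P4ha products did not end in this signal. The P4hb sequence also held 2 copies of the thioredoxin-like active site, whose codons are in capitals, within the windows printed from coding bases 154 to 183 and 1186 to 1215.

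P4hb, first site: gccccgtggTGTGGCCACTGCaaagctctg

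P4hb, second site: gccccttggTGTGGTCACTGCaagcagcta

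Bmp1 alone among the members encoded the zinc-binding motif of the astacin metalloproteases, once, from coding base 652. The codons of the first residues of the motif are in capitals.

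Bmp1: CATGAGCTGGGCCATgtcattggcttctgg

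The members lie on 7 autosomes, here with GRCm38 positions. P4hb is on chromosome 11 at 120560298 to 120573253 and Serpinh1 on chromosome 7 at 99345376 to 99353239, both on the reverse strand. Pcolce is on chromosome 5 at 137605103 to 137613784 on the reverse strand, 608454 bases from Plod3 at 136987019 to 136996648 on the forward strand. P4ha3, on chromosome 7 at 100285520 to 100319699, lies 932280 bases from Serpinh1. P4ha1 is on chromosome 10 at 59323296 to 59373304, P4ha2 on chromosome 11 at 54100095 to 54131665, and Plod2 on chromosome 9 at 92542223 to 92608428, all on the forward strand. Plod1, on chromosome 4 at 147909753 to 147936767, and Bmp1, on chromosome 14 at 70474558 to 70520234, are on the reverse strand.

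Some gene models overlap. The Pcolce gene overlaps Fbxo24 on the same strand over 1282 bases, and the authors' mean of Fbxo24 was 71.5 normalized counts. Plod3 overlaps Znhit1 on the opposite strand over 1003 bases, with an authors' mean of 290.2 normalized counts for Znhit1. The kit marks strand, but whether the counting used it is not given in the sources used here. How far the overlaps affected the levels was not tested.

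The means not divided by length are given first, with their place in the whole table. The authors' mean was 8503 for P4hb, 7931 for Serpinh1 and 4867 for Pcolce. These 3 stood at percentiles 99.2, 99.1 and 98.0 of the 26681 genes with a mean above 0, whose median was 82.1. P4ha1 followed with an authors' mean of 2501, at percentile 94.0, so that 4 members lay in the top 10% of genes.

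The authors' mean was 1422 for Plod1, 1189 for Bmp1 and 1090.3 for Plod3, between percentiles 83.9 and 87.7. Plod2, which acts mainly on the telopeptide lysines of collagen, had an authors' mean of 458 and P4ha2 one of 347. For P4ha3, the single member under the median of all genes, the authors' mean was 32.8, at percentile 42.6. Among the 18016 protein-coding genes with a mean above 0, Plod2 ranked 7642, P4ha2 8726 and P4ha3 13835. Together the 10 genes held 0.148% of the summed means.

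**Figure D1:**
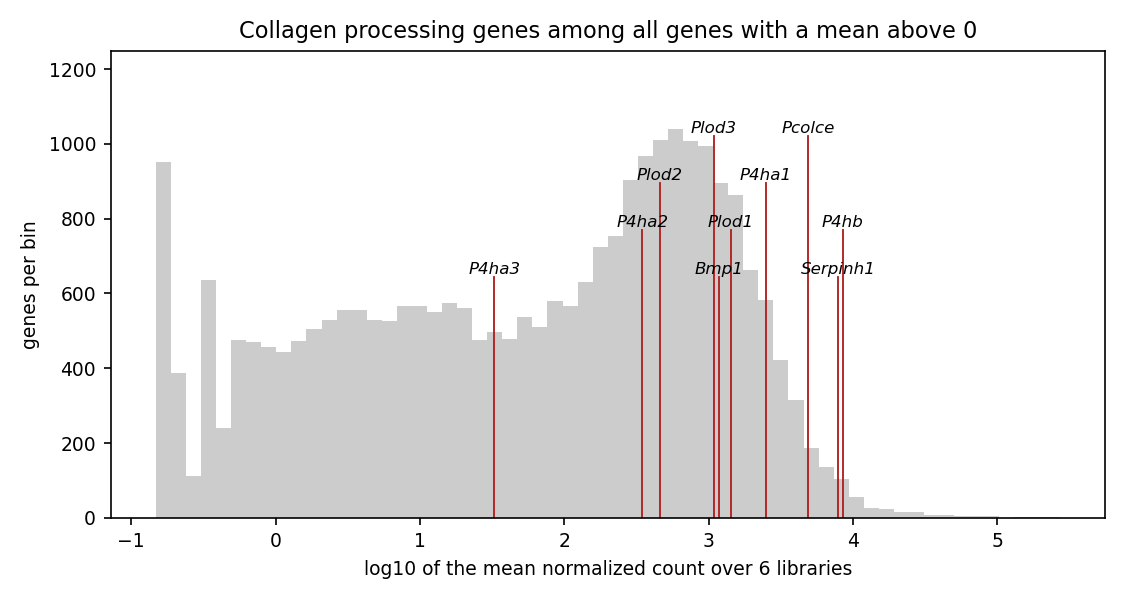
Histogram of the mean normalized count over 6 libraries, on a log10 scale, for the 26681 genes with a mean above 0, with a red line for each collagen processing gene (line heights carry no value). P4hb and Serpinh1 lie in the upper tail at 8503 and 7931, and P4ha3 at 32.8 lies below the median of 82.1.

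The methods of the study name TPM, a unit already divided by length, as a step before the normalized counts, and whether that division remained in the deposited means is not given in the sources used here. The means themselves went with length. Among 15105 protein-coding genes with a mean of at least 10, the median mean was 222 in the tenth of genes with the shortest transcripts and 1175 in the tenth with the longest. After division by the length of the longest transcript, these medians were 215 and 138 per kilobase. Spearman's rho across genes, which are not independent replicates, was 0.301 with length before the division and -0.0791 after it. Ratios between genes below are therefore per length, and the ratio without division is printed beside those of P4hb and Pcolce. For these ratios the mean was divided by the length of all exons of a gene merged, in kilobases. The check above used the longest transcript and was not run with merged exons. On the merged exon scale Serpinh1 led with 3246 normalized counts per kilobase, 1.09 times the 2972 of P4hb. Pcolce had 1273 per kilobase and P4ha1 had 608. The median of the 24875 genes with a length was 37.6 per kilobase and the 90th percentile was 389, so each of these 4 members exceeded the 90th percentile.

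The remaining members were lower per kilobase. Plod3 had 241 normalized counts per kilobase, Plod1 had 210.2 and Bmp1 had 134. Plod2 followed with 84.8 and P4ha2 with 55.7. P4ha3, with 10.5 per kilobase, was the single member below the median of all genes on this scale too. Plod2 was also below the median with coding length, at rank 9383 of 18318 genes. The same held with the median coding transcript, where Plod2 had rank 9518 of 18023. With merged exons the second lowest member, P4ha2, was at 5.32 times P4ha3. With coding length the second lowest was Plod2, at 9.98 times P4ha3, and without division it was P4ha2, at 10.6 times. Serpinh1 and P4hb together held 70.4% of the summed level of the 10 genes per kilobase of merged exons, 46.1% with the median coding transcript and 58% without division.

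The choice of length moved single values by up to several fold, since the annotated transcripts of a gene differ in length and only part of each is coding. The largest move was that of P4ha2, from 55.7 per kilobase with merged exons to 509 with the median coding transcript. There it stood above Bmp1 with 323 and Plod2 with 125. With the longest coding length in place of merged exons, the level per kilobase was 6339 for Serpinh1, 5569 for P4hb, 3290.5 for Pcolce and 1561 for P4ha1, and these 4 kept their order. With the median coding transcript they did not. Pcolce then led with 6083 per kilobase, ahead of P4hb with 4684 and Serpinh1 with 3727, and Plod1 with 1343 stood above P4ha1 with 857. With coding length Plod1 stood above Plod3, with 651 against 490.5 per kilobase, and P4ha2 above Plod2, with 216 against 201. The order within these pairs is therefore not settled by the table. P4ha3 was lowest under each of the 4 lengths used.

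**Figure D2:**
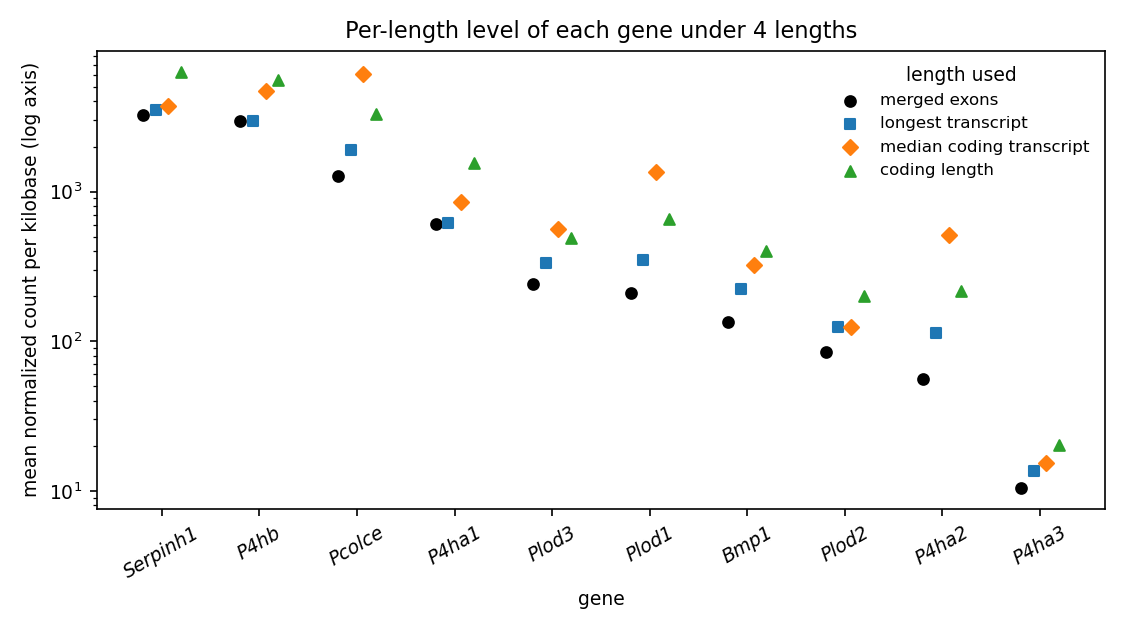
Mean normalized count per kilobase (log axis) of each gene, ordered by the value for merged exons, with 1 point for each of 4 lengths (merged exons, longest transcript, median coding transcript, coding length). Serpinh1, P4hb and Pcolce lie above 1000 per kilobase under every length, and P4ha3 stays between 10.5 and 20.2.

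Within the Plod family the level was divided mainly between Plod1 and Plod3. Per kilobase of merged exons, Plod3 held 45% of the family level, Plod1 39.2% and Plod2 15.8%. Plod3 encodes the enzyme of the family that also transfers glucose to galactosylhydroxylysine, and Plod1 encodes one that hydroxylates lysine within the helix. The lead of Plod3 was narrow at 1.15 times Plod1 and turned to Plod1 under each other length. With the median coding transcript Plod1 held 66.1% and Plod3 27.7%. Plod2 remained the lowest of the 3 throughout, with a share between 6.16% and 15.8%.

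The P4ha family was dominated by 1 gene. P4ha1 held 90.2% of its level per kilobase of merged exons, P4ha2 8.26% and P4ha3 1.55%. With the median coding transcript, taken for P4ha2 over 8 coding transcripts, the share of P4ha1 was 62% and that of P4ha2 36.9%. P4ha1 led and P4ha3 was lowest under every length.

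The partner subunit exceeded the catalytic chains. P4hb stood at 4.41 times the summed per-length level of P4ha1, P4ha2 and P4ha3 with merged exons, and at 3.1 times with coding length. Without division by length the ratio was 2.95. P4hb protein also works as a disulfide isomerase on other proteins and is a subunit of the microsomal triglyceride transfer protein.

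**Figure D3:**
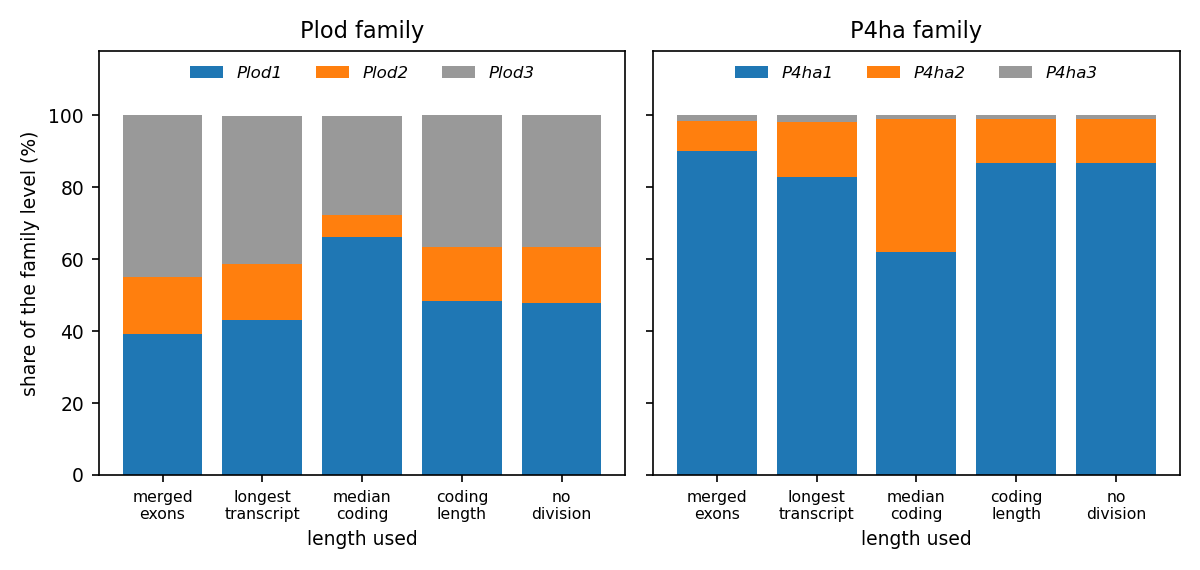
Share (%) of each paralog in the summed level of its family, for the Plod genes (left) and the P4ha genes (right), as stacked bars for 4 lengths and for means without division by length. P4ha1 fills between 62% and 90.2% of its family, whereas Plod1 and Plod3 divide most of theirs.

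At the last steps of processing, Pcolce exceeded its protease. The level of Pcolce was 9.49 times that of Bmp1 per kilobase of merged exons and 8.22 times with coding length. It was 18.8 times with the median coding transcript and 4.09 times without division by length. The other genes that can serve these steps were lower than Pcolce. Pcolce2, the second enhancer, had 129.9 normalized counts per kilobase, close to Bmp1. The proteases related to Bmp1, encoded by Tll1 and Tll2, had 30.9 and 1.86 per kilobase. Mep1a and Mep1b, the meprins, had authors' means of 0.154 and 0.153 normalized counts. Among the genes for removal of the N-terminal propeptide, Adamts2 had 135 per kilobase, Adamts3 had 37.2 and Adamts14 had 5.54.

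Genes of neighbouring steps were compared from 6 lists. They name 38 genes besides the members, of which 37 were found in the table under their symbol or an older one (Mia3 was not matched) and 36 had a length. Of the 36, 30 reached the median of all genes per kilobase of merged exons. The members had a median of 226 per kilobase. The median was 384 for 6 genes of prolyl 3-hydroxylases and their partners, 306 for 7 other genes of collagen folding and glycosylation, 261 for 5 lysyl oxidases, 203 for the 3 procollagen export genes with a length and 18.2 for the 8 other propeptidase and enhancer genes.

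A complex of the products of P3h1, Crtap and Ppib modifies single prolines of fibrillar collagens. Values are again per kilobase of merged exons unless coding length is named. The scaffold gene Crtap had 498 normalized counts per kilobase, and the catalytic P3h1, listed under its older symbol Lepre1, had 208. Ppib, which encodes the cyclophilin of this complex, had 545. In the list, which also holds enzymes outside this complex, the highest was P3h3 with 556 and the lowest P3h2 with 80.7. With coding length Ppib was highest with 2778. Fkbp10, the prolyl isomerase that acts beside HSP47 and the Plod2 product, had 306 per kilobase, and its relative Fkbp9 was the highest of its list with 2425. Tmem38b, an ion channel of the endoplasmic reticulum, was the lowest there with 89.8, whereas Colgalt2 was lowest with coding length, at 209. Lox, which begins the cross-links that lysyl hydroxylation prepares, had 486, within a range from 116 for Loxl4 to 700.4 for Loxl1. With coding length Lox was the highest of its list with 1884. In the export list Sec23a was highest with 474 and Klhl12 lowest with 70.7, whereas Sec24d was lowest with coding length, at 414.

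Chaperones of general use were at the level of the leading members. Their 7 genes had a median of 2206 per kilobase, from 928 for Pdia6 to 3228 for Canx. Among the 46 genes of the 6 lists and the members, Serpinh1 ranked first with merged exons, and P4hb took place 4 behind Serpinh1, Canx and Calr. With coding length Calr and Canx stood above Serpinh1. With the median coding transcript Serpinh1 took place 6, and Pcolce ranked first. Without division by length Serpinh1 took place 7. With merged exons Serpinh1, a chaperone dedicated to collagen, was at 3246 per kilobase beside 2752 for Hspa5, the general chaperone BiP, whereas without division their means were 7931 and 11639.7.

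**Figure D4:**
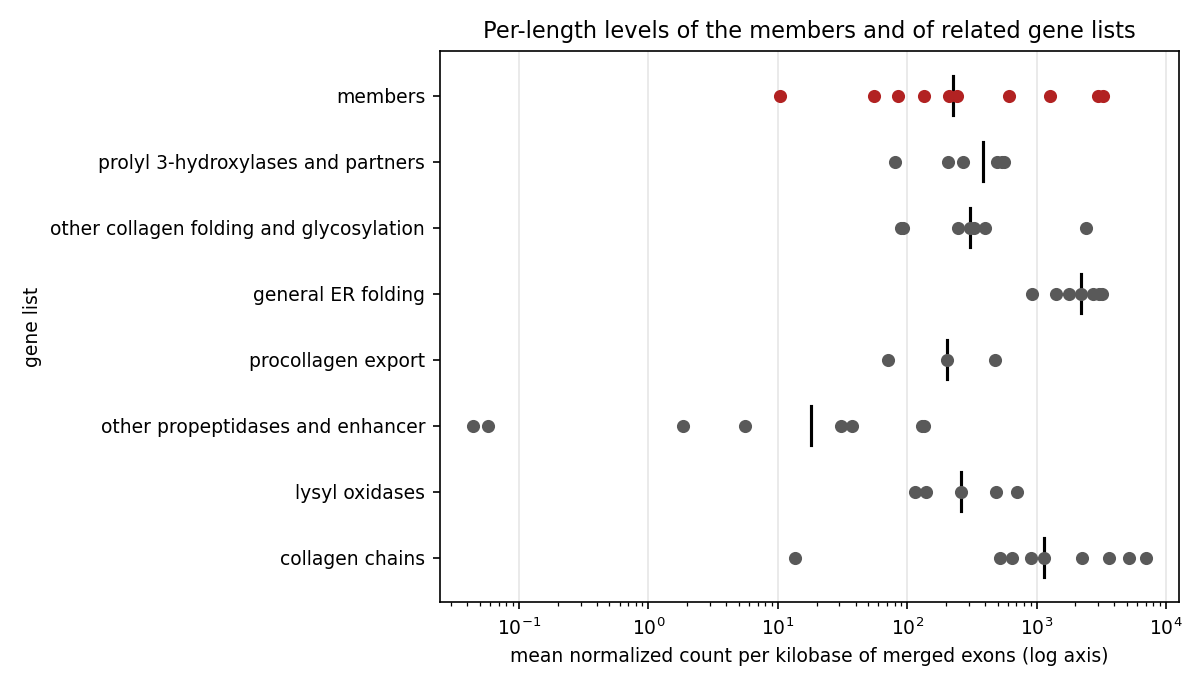
Mean normalized count per kilobase of merged exons (log axis) for the members (red) and for related gene lists (grey), 1 point per gene and a black line at the median of each list. P4hb lies within the range of the general chaperones and Serpinh1, at 3246, just above its top of 3228. All 8 other propeptidase and enhancer genes lie below the members' median of 226.

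The leading collagen chains stood above the genes that process them. Col1a1 and Col1a2, the chains of type I collagen, had 6986 and 5196 normalized counts per kilobase, and Col3a1 had 3623. These were the 3 of 9 listed chains above Serpinh1 and P4hb with merged exons. With coding length Col8a1 joined them. Col1a1 stood at 2.15 times Serpinh1, 11.5 times P4ha1, 33.2 times Plod1 and 52.1 times Bmp1 per kilobase. With coding length these ratios were 1.66, 6.74, 16.2 and 26.3, and Col1a2, with 15686 per kilobase, stood above Col1a1 with 10518. Without division the ratios were 5.78, 18.3, 32.2 and 38.5, and 5 of the 9 chains stood above Serpinh1 and P4hb. With the median coding transcript they were 2.07, 9.02, 5.76 and 23.9. Col2a1, the cartilage and vitreous collagen chain, was lowest with 13.5.

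The tissue of origin was checked by cell type markers, in ranges. Of the 7 RPE markers, 6 had authors' means from 10046 (Rdh5) to 99321 (Ttr), and Best1 had 69.8. Melanocyte markers (5 genes) ranged from 7838 to 89145, but these genes are also expressed in RPE and do not tell the 2 cell types apart here. Fibroblast markers (3) ranged from 5470.5 to 43429.8, endothelial markers (5) from 1025 to 6377 and mural markers (4) from 3145 to 21346. The 4 macrophage markers had means from 303 to 4063 and the 2 Schwann cell markers 257 and 1177. Markers of tissue that the dissection was meant to remove were also present, with 6487 to 48191 for 5 rod genes, 12939 to 51830.0 for 3 skeletal muscle genes and 1089 to 1973 for 3 lens genes. None of the listed markers was at 0. Their part in the levels of the collagen processing genes was not tested.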

How the data were processed

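Per the labels and the methods of the study, RPE/choroid RNA was depleted of ribosomal RNA, without poly(A) selection, and made into stranded paired-end libraries. The authors used BBDuk for trimming and STAR for alignment to the GRCm38 transcripts of Ensembl, then estimated abundances with Sailfish in TPM and turned them into normalized counts by total count. The deposited signal used here is the mean normalized count per gene over 6 libraries (3 Young, 3 Aged), as the authors' DESeq2 run wrote it. The table holds 0 columns of values per sample. Its fold change, standard error, Wald statistic, p-value and adjusted p columns hold the authors' comparison and were not used. The depth of each library is not known from the table, and no interval was computed.

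Symbols were matched to GENCODE M21 (GRCm38), whose release differs from that of the authors, directly or by a RefSeq synonym (93.2% of 26681 genes, 2048 by synonym). Means were divided by merged exon length in kilobases. Alternatives were the longest transcript, the median coding transcript and the longest coding sequence, taken from GENCODE and without the stop codon. Proteins were translated from the principal coding transcript and aligned end to end with BLOSUM62 (Biopython 1.88, Python 3.11.15). Length, rank and run functions were tested on simulated data. All 10 members are named. From related lists, the highest and lowest genes and those that act with a member are named, and others, chosen after their values were seen, are the meprins, Hspa5, Tll1, Tll2, Colgalt2, Sec24d, Adamts3, Adamts14, Col8a1 and Calr. Members and lists were chosen with earlier results of these data known.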

Additional observations from a re-analysis of the deposited data

How the results depend on the processing

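Each mean pools both ages with no replicate values, so any change under another length counts as a move. Against 39.2% with merged exons, the share of Plod1 in its family was 43.1% with the longest transcript, 66.1% with the median coding transcript, 48.5% with coding length and 47.9% without division by length. For P4ha1, against 90.2%, these shares were 83%, 62%, 86.9% and 86.8%. P4hb stood at 3.99, 3.39, 3.1 and 2.95 times the summed P4ha level, against 4.41, and Pcolce at 8.53, 18.8, 8.22 and 4.09 times Bmp1, against 9.49. The last of the P4hb ratios was chosen after seeing the data. So were, under every length, the ratios of Pcolce to Bmp1 and of Col1a1 to the members, the ratio of the second lowest member to P4ha3, the joint share of Serpinh1 and P4hb, the places of both among the listed genes and the counts of collagen chains above them. Of the 10 members, 8 kept their place in the per-length order with the longest transcript, 6 with coding length and 2 with the median coding transcript, under which Pcolce was highest and Plod1 replaced P4ha1 among the top 4. Ranks among all genes moved with division by length, for Bmp1 from 3929 to 6918. Leaving out genes with a mean below 10 could not move a rank, since every member lies above that mean. No paired analysis was possible because both ages are pooled in the single mean of a gene. Equally, the comparison of Aged with Young mice, its pseudocounts, its low-value filter and the leaving out of each mouse were not run.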
